A study of Homo sapiens with 8 samples.

Results

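The genes described here are 33 genes of glycolysis and of the cellular response to low oxygen, 17 glycolytic enzymes and 16 regulators or hypoxia-induced genes, taken from a fixed list by Ensembl identifier. All 33 were found among the 34618 genes of the deposited tables, and 32 had enough reads to be tested. The assay was stranded RNA sequencing of polyadenylated transcripts in THP1, a human acute monocytic leukaemia cell line, in 8 libraries. Cells carrying an empty vector gave the 4 MOCK libraries. The 4 RRM2_OE libraries are those of cells engineered to carry the iRxI/AxA mutant, described in the labels as RRM2 OE. All 8 samples received doxycycline at 2 µg/mL and grew in serum suited to tetracycline-controlled expression, so drug and serum did not differ between the groups. The series concerns dNTP balance and the differentiation block of acute myeloid leukaemia, and the comparison asked which transcripts differ once the mutant is present. The labels give 1 cell line, do not say whether the transduced cells were a clone or a pool, nor whether replicates were separate cultures. The p-values therefore reflect only how much these libraries vary, which may be technical.

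Glycolysis converts glucose to pyruvate in the cytosol, and lactate dehydrogenase then recycles the cofactor NAD+ by reducing pyruvate to lactate. Under low oxygen the prolyl hydroxylases encoded by the EGLN genes no longer mark the HIF alpha subunits for destruction by VHL, and HIF with its partner ARNT switches on most glycolytic enzymes together with genes such as VEGFA, CA9 and BNIP3. Myeloid cells and leukaemia lines in culture run glycolysis at a high rate even with oxygen present. HIF-1 alpha is controlled mainly at the protein level, and neither protein, metabolites nor oxygen were part of these data.

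The 8 libraries held 10994255 to 11686152 counts each. RRM2 itself, the small subunit of ribonucleotide reductase, was higher in every RRM2_OE library (215 to 236 CPM) than in every MOCK library (116 to 128 CPM), which fits the labels. CPM here are counts scaled to a common library size after TMM, a method that balances library composition. Of 10 monocyte and myeloid markers, 9 reached 1 CPM on average in MOCK (CD68 was at 0.667 CPM), but so did 7 of 8 erythroid and megakaryocyte markers, among them GATA1 at 104 CPM, which are not typical of a monocytic line. These summed to 679 to 812 CPM in MOCK and 642 to 796 CPM in RRM2_OE, with 1 called higher (ITGA2B) and 2 lower (ALAS2 and HBG2). The myeloid markers summed to 3569 to 3749 CPM in MOCK and 3432 to 3467 CPM in RRM2_OE, but moved in both directions: CD14, LYZ, CSF1R and ITGAM were called higher, by 0.25 to 0.41 on the log2 scale, and MPO, myeloperoxidase of immature myeloid cells, fell from 1225 ± 147 to 466 ± 53.0 CPM (log2 fold change -1.39, SE 0.10, adjusted p = 8.29e-06, edgeR). Markers of T and NK cells, 4 of 8 at 1 CPM or more in MOCK, summed to 112 to 119 CPM in MOCK and 155 to 167 CPM in RRM2_OE, with 5 called higher. CD3E, CD3G and CD2 had too few reads to test. PRF1 gave most of the sum (means 68.3 CPM in MOCK and 87.9 CPM in RRM2_OE), and CD8A, among the 5, was at only 0.334 and 1.28 CPM. Over all genes tested, 12.8% were called higher or lower. B cell markers (2 of 5 at 1 CPM) summed to 4.51 to 6.69 and 5.87 to 8.09 CPM, with CD79A called higher, and epithelial, fibroblast and endothelial markers (3 of the 7 matched) to 36.7 to 40.8 and 38.0 to 43.3 CPM. MS4A1 was at 0 in the 4 MOCK libraries, and no matched marker was at 0 in all 8. The part of these markers in the results below was not tested. In bulk libraries a change in the number of cells of a type and a change in RNA per cell cannot be told apart.

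In MOCK cells several glycolytic enzymes were among the most abundant transcripts. The authors' RPKM divides by the joined length of all exons of a gene, so it compares levels of different genes only roughly. On this scale GAPDH (glyceraldehyde-3-phosphate dehydrogenase) stood at 1536 ± 128 RPKM (mean ± SD, n = 4 here and throughout) and ranked 21st of the 34618 genes over all 8 libraries. ENO1, an enolase, followed at 427 ± 33.03 RPKM, PKM (pyruvate kinase) at 297 ± 7.05, ALDOA (aldolase A) at 283 ± 9.32, LDHA (lactate dehydrogenase A) at 210.1 ± 10.7 and TPI1 (triosephosphate isomerase) at 200.1 ± 16.8 RPKM. PKM lay above ALDOA in each of the 8 libraries, although their ranges in MOCK overlapped. LDHA lay below TPI1 in replicates 1 and 3 of both groups and above it in replicates 2 and 4. LDHB, the other lactate dehydrogenase subunit, stood at 141 ± 20.9, PGK1 (phosphoglycerate kinase) at 107 ± 6.02 and PGAM1 (phosphoglycerate mutase) at 41.9 ± 2.92 RPKM. Among enzymes of the first steps, GPI (glucose-6-phosphate isomerase) stood at 55.0 ± 1.28, the hexokinases HK1 and HK2 at 39.4 ± 2.00 and 25.7 ± 1.88, and the platelet, liver and muscle types of phosphofructokinase, PFKP, PFKL and PFKM, at 36.8 ± 2.19, 21.0 ± 1.23 and 2.82 ± 0.0751 RPKM. The minor isozymes ENO2 and ALDOC stood at 30.7 ± 1.47 and 13.1 ± 0.709 RPKM. The 17 enzymes held 1.47% to 1.53% of all counts in MOCK and 1.44% to 1.49% in RRM2_OE, ranges that overlapped.

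The regulators and hypoxia-induced genes ranged from 79.9 down to 0.131 RPKM in MOCK. P4HA1, a collagen prolyl hydroxylase, was the highest at 79.9 ± 3.67 RPKM, followed by the mitophagy receptor BNIP3L at 59.5 ± 3.42, NDRG1, a stress-responsive cytosolic protein, at 33.5 ± 0.475 and HIF1A at 30.8 ± 1.55 RPKM. VEGFA, the vascular endothelial growth factor, stood at 15.2 ± 0.814 RPKM. At the lower end were ADM, the vasoactive peptide adrenomedullin (2.12 ± 0.257 RPKM), the oxygen sensor EGLN3 (0.398 ± 0.105 RPKM) and CA9, carbonic anhydrase IX (0.131 ± 0.0976 RPKM). CA9 was the gene with too few reads to test, with 5, 1, 3 and 1 reads in MOCK and 4, 10, 8 and 4 in RRM2_OE. The deposited exon length joins all exons of a gene (15115 bp for PDK1, for example), so RPKM of genes with many annotated transcripts is low relative to that of the main transcript.

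**Figure D1:**
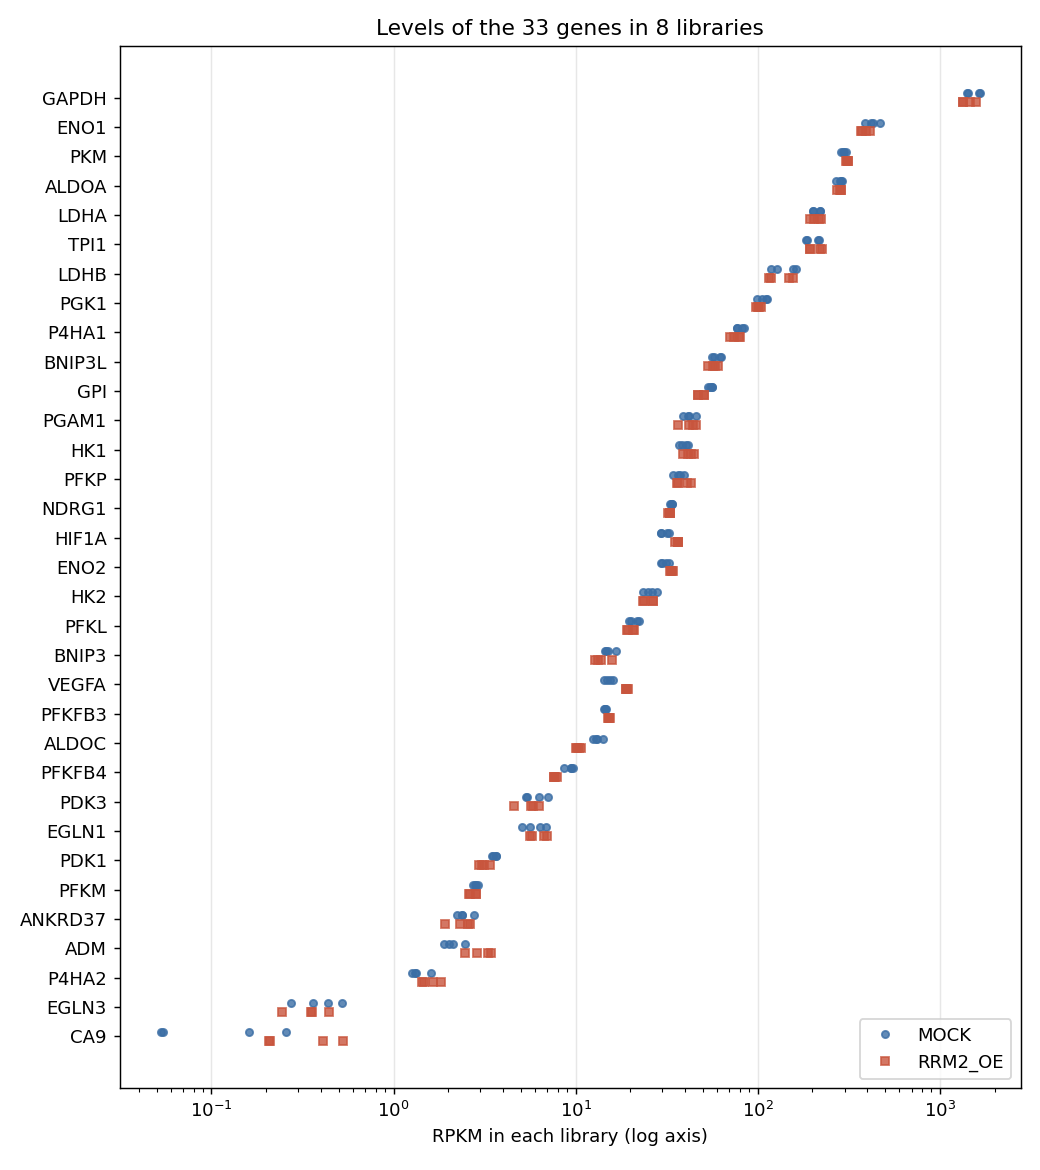
RPKM of the 33 genes in each of the 8 libraries on a log axis, ordered by the MOCK mean (circles MOCK, squares RRM2_OE). Levels run from GAPDH at the top, down to CA9, below 1 RPKM in every library, and for most genes the groups lie on top of each other.

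In RRM2_OE, 3 of the 32 tested genes rose (VEGFA, HIF1A and ADM) and 4 fell (ALDOC, PFKFB4, PDK1 and GPI) at an adjusted p below 0.05 in edgeR's quasi-likelihood test. None of the 32 changed by more than 1.5-fold. These 7 are 21.9% of the tested members, against 12.8% of all 15286 genes tested, with 7.41% of all genes higher and 5.42% lower. The members were chosen with earlier results of these data known, so their share is not independent of these data. The median log2 fold change was -0.05 over the 32 members and -0.0028 over all genes. Of the members, 21 lay below 0 and 11 above, while 50.6% of all genes lay below 0. CPM of the groups did not overlap for 8 members, 3 with RRM2_OE above and 5 below (25% of members, against 19.4% of all genes, 10.5% above and 8.89% below). The count of 4 that fell was 2 on leaving out MOCK replicate 1, MOCK replicate 2, MOCK replicate 3 or RRM2_OE replicate 2.

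VEGFA, a secreted factor that drives blood vessel growth, showed the rise with the smallest adjusted p. Replicates 1 to 4 of MOCK gave 239, 215, 224 and 203 CPM, and those of RRM2_OE gave 277, 271, 283 and 270.0 CPM. Every RRM2_OE library lay above every MOCK library. The log2 fold change was 0.32 (SE 0.05, adjusted p = 0.00155, edgeR), a rise of 24.96%, and the difference was 0.27 on the log2 scale within replicates 1 and 3 and 0.37 within replicates 2 and 4. VEGFA (ENSG00000112715) lies on chromosome 6, 43737921 to 43754224 of hg19, and an unnamed gene overlaps it on the opposite strand.

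HIF1A, which encodes the oxygen-regulated subunit of HIF-1, rose by less. Its MOCK libraries gave 169, 168, 152 and 150.0 CPM and its RRM2_OE libraries 182, 186, 191 and 185 CPM, again without overlap. The log2 fold change was 0.22 (SE 0.05, adjusted p = 0.0136, edgeR), with 0.21 in replicates 1 and 3 and 0.22 in replicates 2 and 4. HIF1A (ENSG00000100644, chromosome 14, 62162231 to 62214976) overlaps 2 named antisense genes, HIF1A-AS1 and HIF1A-AS3, and an unnamed gene on the same strand. Whether the counting used strand is not stated in the sources used here.

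ADM rose from 5.80 ± 0.689 to 8.18 ± 1.15 CPM (log2 fold change 0.49, SE 0.13, adjusted p = 0.0289, edgeR). MOCK libraries gave 5.28, 6.81, 5.46 and 5.65 CPM and RRM2_OE libraries 6.79, 9.23, 9.01 and 7.69 CPM, so that MOCK replicate 2 reached just above RRM2_OE replicate 1 and the groups overlapped. With 60 to 106 reads per library ADM was the most thinly counted of the called members, and 5 libraries each ended its call when left out (MOCK replicates 1, 3 and 4, RRM2_OE replicates 2 and 3), with an adjusted p of up to 0.0786. ADM (ENSG00000148926) lies on chromosome 11, 10326227 to 10328944.

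The oxygen sensors themselves gave small differences. EGLN1, the main HIF prolyl hydroxylase, went from 43.7 ± 5.20 to 45.2 ± 4.39 CPM (log2 fold change 0.05, SE 0.09, adjusted p = 0.797, edgeR). For EGLN3, which HIF induces as feedback, the log2 fold change was -0.20 with an SE of 0.22 at 21 to 42 reads per library, so a change of this size was not detectable at this depth.

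Among the enzymes, 2 of 17 fell, ALDOC and GPI, and 0 rose (11.8% called, against 12.8% of all genes, so the share was near the background). ALDOC, the aldolase isozyme best known from brain, showed the largest fall of all 32 tested genes. MOCK libraries gave 38.9, 36.8, 38.3 and 40.8 CPM and RRM2_OE libraries 31.6, 30.2, 29.9 and 29.2 CPM, with all of the latter lower. The log2 fold change was -0.36 (SE 0.06, adjusted p = 0.00183, edgeR), a fall of 21.9%, with -0.33 in replicates 1 and 3 and -0.39 in replicates 2 and 4. ALDOC (ENSG00000109107) lies on chromosome 17, 26900133 to 26904282, and an unnamed gene overlaps it on the same strand and another on the opposite strand.

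GPI, which turns glucose 6-phosphate into fructose 6-phosphate, gave 523, 492, 513 and 489 CPM in MOCK and 467, 421, 464 and 423 CPM in RRM2_OE. These groups did not overlap, and RRM2_OE was lower (log2 fold change -0.18, SE 0.05, adjusted p = 0.0317, edgeR; chromosome 19, 34850385 to 34893061). Leaving out any of 5 single libraries (MOCK replicates 1, 2 and 3, RRM2_OE replicates 2 and 4) ended this call, with an adjusted p of up to 0.0906. An unnamed gene overlaps GPI on the same strand.

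The other 15 enzymes gave log2 fold changes between -0.15 (ENO1) and 0.12 (ENO2). GAPDH and ENO1, the most expressed, gave -0.11 (SE 0.08, adjusted p = 0.422, edgeR) and -0.15 (SE 0.06, adjusted p = 0.0939, edgeR), and both were called lower with replicate number as a block. PKM gave 0.05 (SE 0.05), ALDOA -0.01 (SE 0.05), LDHA -0.02 (SE 0.05), TPI1 0.04 (SE 0.08) and PGAM1 -0.01 (SE 0.08) on the log2 scale, with adjusted p from 0.623 to 0.975 (edgeR). The enzymes that commit glucose to the pathway did not pass either: HK2 gave -0.05 (SE 0.06), PFKP 0.07 (SE 0.06), PFKL -0.08 (SE 0.05) and PFKM -0.06 (SE 0.07), with adjusted p from 0.294 to 0.666 (edgeR). Several of these enzymes, GAPDH, LDHA, LDHB, TPI1, PGAM1 and ENO1 among them, have processed pseudogenes with near-identical sequence. How the counting treated reads shared with such copies is not stated, which leaves their levels uncertain.

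PFKFB4 and PDK1 encode regulators rather than pathway enzymes. PFKFB4 makes and breaks down fructose 2,6-bisphosphate, an activator of phosphofructokinase. Its MOCK libraries gave 59.4, 53.8, 58.4 and 58.4 CPM and its RRM2_OE libraries 47.5, 46.9, 47.2 and 47.9 CPM, without overlap and with RRM2_OE lower. The log2 fold change was -0.28 (SE 0.05, adjusted p = 0.00383, edgeR), with -0.31 in replicates 1 and 3 and -0.24 in replicates 2 and 4. PFKFB4 (ENSG00000114268; chromosome 3, 48555117 to 48599448) overlaps UCN2 on the same strand. Its relative PFKFB3, whose product mainly makes the activator, gave 0.06 (SE 0.04, adjusted p = 0.395, edgeR), from 80.6 ± 1.75 to 84.2 ± 1.46 CPM.

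PDK1, a kinase that inactivates pyruvate dehydrogenase and so limits entry of pyruvate into mitochondria, gave 56.6, 55.5, 52.9 and 52.6 CPM in MOCK and 48.2, 45.8, 44.8 and 50.3 CPM in RRM2_OE. RRM2_OE was lower without overlap (log2 fold change -0.20, SE 0.06, adjusted p = 0.0331, edgeR; chromosome 2, 173420101 to 173489823). This call was lost without any of 6 single libraries (replicates 1, 2 and 3 of either group), with an adjusted p of up to 0.0892. PDK1 overlaps PDK1-AS1 on the opposite strand. For PDK3, a sister kinase at 144 to 210 reads per library, the log2 fold change was -0.11 with an SE of 0.11 (adjusted p = 0.578, edgeR).

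The remaining hypoxia-induced members did not pass the test. BNIP3 and BNIP3L, receptors that hand mitochondria to autophagy, gave -0.15 (SE 0.08) and -0.07 (SE 0.05) on the log2 scale. The collagen hydroxylase subunits P4HA1 and P4HA2 gave -0.09 (SE 0.05) and 0.19 (SE 0.10), and ANKRD37, a small ankyrin repeat protein, gave -0.06 (SE 0.13). Relative to its mean, NDRG1 varied least of the tested members in MOCK, at 327 to 337 CPM, and lay at 319 to 326 CPM in RRM2_OE. Its groups did not overlap, yet the log2 fold change was only -0.04 (SE 0.04, adjusted p = 0.536, edgeR). Thus 3 of the 15 tested regulators and hypoxia-induced genes rose, 2 fell and 10 did not pass (33.3% called, against 12.8% of all genes).

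**Figure D2:**
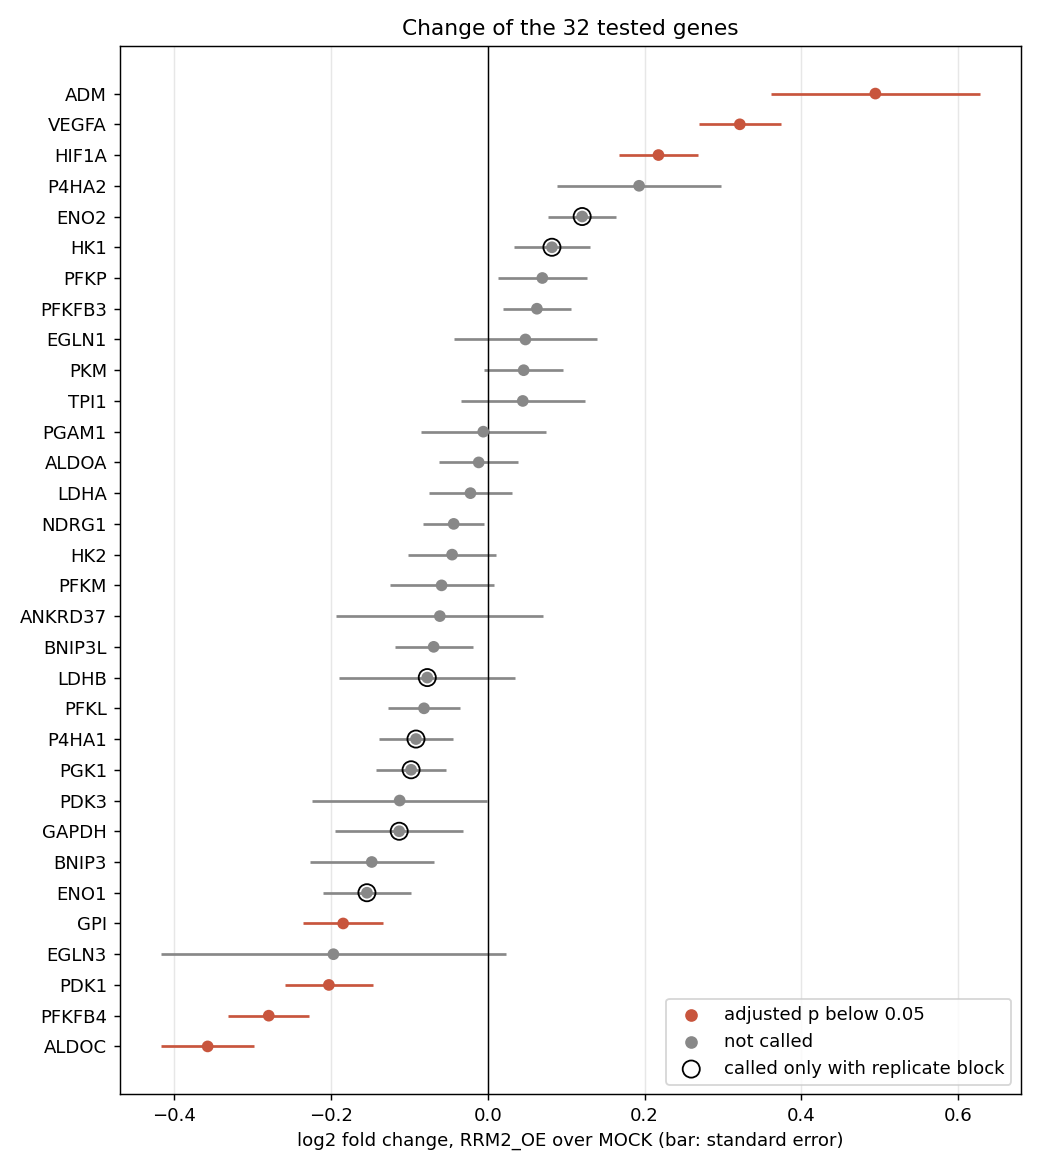
Log2 fold change of RRM2_OE over MOCK with its standard error for the 32 tested genes, coloured where the adjusted p is below 0.05. Rings mark genes called with replicate number as a block but not in the main test, whether or not another alternative also called them. ADM, VEGFA and HIF1A lie above 0, ALDOC, PFKFB4, PDK1 and GPI below, and all values lie between -0.36 and 0.49.

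Libraries whose replicate numbers were both odd or both even deviated together, whether or not the number was the same. With replicate number as a block 14 members were called, 5 higher and 9 lower, beside 29.1% of all genes (15.1% higher, 14% lower). All 7 members called without the block were among them. The other 7 were ENO2 (adjusted p = 0.00472, range over its alternatives 0.00284 to 0.242) and HK1 (0.0244, range 0.0147 to 0.553), which were higher, and 5 that were lower. Of these, ENO1, the major enolase, went from 1698 ± 103 to 1526 ± 62.6 CPM (adjusted p = 0.0939 without the block and 7.79e-05 with it, range 1.91e-06 to 0.259, edgeR). GAPDH went from 4602 ± 439 to 4256 ± 397 CPM (0.422 without and 0.00288 with the block, range 2.42e-04 to 0.692), a gene often taken as a reference for equal loading. PGK1 (0.185 and 0.00700, range 0.00193 to 0.343), P4HA1 (0.241 and 0.0119, range 0.00559 to 0.477) and LDHB (0.727 and 0.0272, range 0.0131 to 0.958) completed this group. The log2 fold changes of these 7 lay between -0.15 and 0.12.

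The same libraries separated by odd and even replicate number, a split already known across all genes of these data and given here as a description. LDHB, the lactate dehydrogenase subunit favoured in heart, showed the clearest split: MOCK libraries gave 365, 468, 381 and 476 CPM and RRM2_OE libraries 359, 460.3, 347 and 436 CPM, with replicates 2 and 4 above replicates 1 and 3 in both groups. The mean of the even-numbered libraries was 0.34 higher on the log2 scale. TPI1 went the other way, with 599.5, 511, 577 and 489 CPM in MOCK and 602, 513, 612 and 517 CPM in RRM2_OE, or -0.24 for even over odd. GAPDH gave 5063, 4303, 4885 and 4158 CPM in MOCK and 4394, 3912, 4755 and 3962 CPM in RRM2_OE, so that its difference between even and odd numbers (-0.23) exceeded that between the groups (-0.11).

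In all, 10 of the 32 members did not overlap between odd and even numbers (31.3%, against 19.3% of all genes, 9.71% with even numbers above and 9.61% below). Higher in the even-numbered libraries were LDHB, EGLN1, HK2, PFKP, LDHA and BNIP3L, and lower were TPI1, GAPDH, PGAM1 and ALDOA. None of the 7 members called between RRM2_OE and MOCK was among these 10. For all of them but ADM this outcome was fixed in advance. A gene whose groups do not overlap cannot also separate by odd and even number. All 7 kept their direction within replicates 1 and 3 and within replicates 2 and 4. Both subsets contributed to that direction when the members were called. Mitochondrial genes took 8.02% to 9.51% of counts in the odd-numbered and 6.43% to 7.69% in the even-numbered libraries, and their part in this split was not tested.

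**Figure D3:**
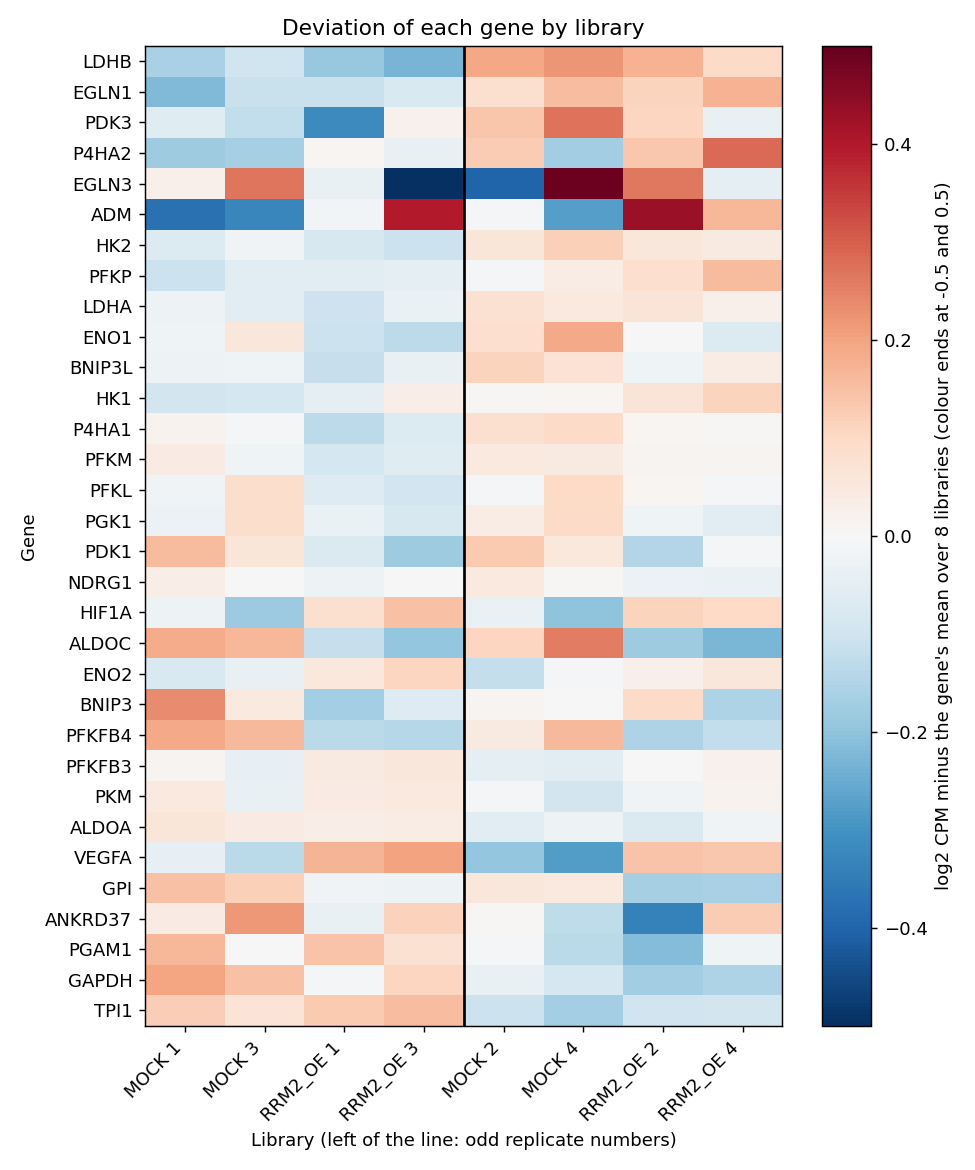
Deviation of log2 CPM of the 32 tested genes from each gene's mean over 8 libraries, with odd replicate numbers left of the line and genes ordered by even over odd difference. LDHB at the top and TPI1 at the bottom change colour at the line, whereas VEGFA, HIF1A, ALDOC and PFKFB4 change between MOCK and RRM2_OE on both sides of it.

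Several glycolytic steps are served by more than one gene. The balance of these isozymes differed slightly between the groups in some families and overlapped in others. HK1 made up 60.6% ± 0.614 of the summed RPKM of HK1 and HK2 in MOCK and 62.6% ± 0.919 in RRM2_OE, without overlap. Within the phosphofructokinases, the liver-type PFKL made up 34.7% ± 0.935 in MOCK and 32.5% ± 0.981 in RRM2_OE, and the platelet-type PFKP 60.7% ± 0.887 and 63.1% ± 1.07, again without overlap. By CPM in place of RPKM the PFKL shares overlapped, and in MOCK PFKL held more than PFKP (48.6% against 46.1%). ENO2, the neuronal enolase, held 6.73% ± 0.326 of the enolase RPKM in MOCK and 8.03% ± 0.455 in RRM2_OE, while ALDOC held 4.44% ± 0.220 of the aldolase RPKM in MOCK and 3.53% ± 0.133 in RRM2_OE. Both pairs of ranges were separate, in opposite directions for the minor isozyme.

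The widest gap was in the PFKFB pair, where PFKFB4 held 37.8% to 39.8% in MOCK libraries and 33.1% to 34.0% in RRM2_OE libraries. LDHA held 60.0% ± 2.38 of the lactate dehydrogenase RPKM in MOCK and 60.9% ± 2.35 in RRM2_OE, which overlapped. It ranged from 61.2% to 63.8% in odd-numbered and 57.6% to 59.3% in even-numbered libraries. PDK1 held 37.4% ± 3.24 of the summed PDK1 and PDK3 RPKM in MOCK and 36.0% ± 3.66 in RRM2_OE, also overlapping. By CPM it held 76.9% in MOCK and 75.8% in RRM2_OE. All these shares are descriptions, without a test, and those of RPKM rest on the deposited exon lengths. For scale, CPM of the groups did not overlap for 19.4% of all genes tested. No such background was computed for shares.

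**Figure D4:**
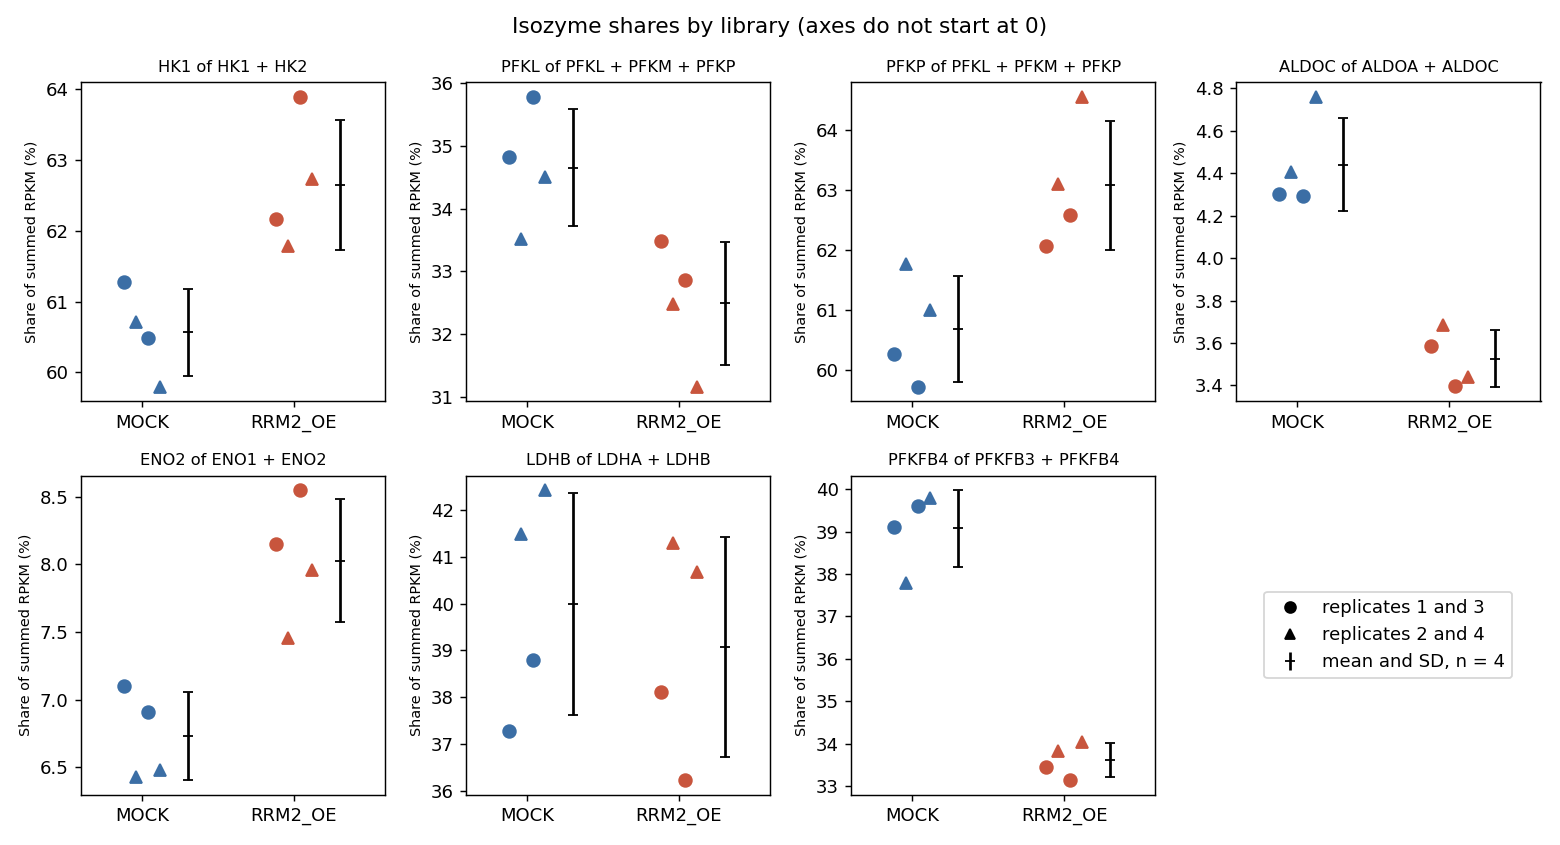
Share of each named isozyme in the summed RPKM of its family, by library (circles replicates 1 and 3, triangles replicates 2 and 4, bars mean and SD, n = 4; axes do not start at 0). By RPKM the groups are separate for HK1, PFKL, PFKP, ALDOC, ENO2 and PFKFB4 (by CPM, not shown, those of PFKL overlap). LDHB splits by odd and even number instead.

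HIF binds a hypoxia response element whose core is ACGTG or GCGTG, and windows around the start sites of the members were searched for both on either strand, with overlapping matches counted once. RefSeq windows on GRCh38.p14, from 250 bases before to 50 bases after each start site, matched 30 of the 33 genes, all but VEGFA, BNIP3L and NDRG1. ACGTG occurred for 19 of these 30 (63.3%), against 24.9% of all 27305 genes with a window. GCGTG occurred for 17 (56.7%), against 40.6%. Members had more windows per gene (53 for 30 genes, against 35116 for 27305) and more G and C (median 68.3%, against 58.3%), and of 9126 genes whose GC content lay in the middle range of the members 30.9% held ACGTG and 58.6% GCGTG. By response, ACGTG occurred for 3 of the 4 members that fell (ALDOC, PDK1 and GPI, not PFKFB4), for 0 of the 2 that rose and had a window (HIF1A and ADM) and for 15 of the 23 not called, with CA9, which was not tested, as the remaining match. GCGTG occurred for 2 of the 4 that fell (ALDOC and PFKFB4), for both HIF1A and ADM, and for 13 of the 23 not called. LDHA and PGK1, with 3 ACGTG matches each in a window, were the richest in ACGTG. LDHA was not called, and PGK1 was called lower only with the replicate block (adjusted p = 0.00700, edgeR, range over its alternatives 0.00193 to 0.343), with an odd/even term or in replicates 2 and 4 alone. The sites of the 3 members that fell are shown with those of LDHA and PGK1, each as at most 30 bases read 5′ to 3′ on the gene's strand, with capitals for the matched letters (CACGT is the same element on the other strand, CACGTG both) and with the position of the first matched base relative to the start site.
ALDOC, chr17:28577118-28577145, minus strand, position -240: aagtgcccggCACGTGgtaaagggattg
ALDOC, chr17:28576907-28576935, minus strand, position -28: ccccggaggagtCACGTagctctgcgaca
PDK1, chr2:172556061-172556089, plus strand, position -17: cctgctgcccgcCACGTccctcacgtacc
PDK1, chr2:172556070-172556098, plus strand, position -8: cgccacgtccctCACGTaccactcggcag
GPI, chr19:34364818-34364846, plus strand, position -162: acactgcctgtaACGTGgaaggtgttcga
LDHA, chr11:18394366-18394395, plus strand, position -185: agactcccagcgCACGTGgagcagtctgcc
LDHA, chr11:18394464-18394493, plus strand, position -87: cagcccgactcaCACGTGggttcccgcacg
LDHA, chr11:18394478-18394506, plus strand, position -73: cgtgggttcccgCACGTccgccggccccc
PGK1, chrX:78104034-78104062, plus strand, position -202: gcggcgtgccggACGTGacaaacggaagc
PGK1, chrX:78104053-78104081, plus strand, position -183: aaacggaagccgCACGTctcactagtacc
PGK1, chrX:78104264-78104292, plus strand, position 28: gcctccggagcgCACGTcggcagtcggct
ACGTG thus stood near genes that fell and also near LDHA, which was not called in any fit. GCGTG stood near genes that rose, genes that fell and genes not called. A match describes the sequence and does not show that a factor bound there.

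Other genes of the same pathways were measured from a list of 103, of which 85 were tested. Of these, 6 rose and 8 fell (16.5%, against 12.8% of all genes), with a median log2 fold change of 0.01. With the block 16 rose and 22 fell, beside 29.1% of all genes called with the block (15.1% higher, 14% lower). Leaving out MOCK replicate 3 or RRM2_OE replicate 4 left 5 that rose and 5 that fell.

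Of 22 tested genes of glucose transport and further sugar enzymes, 1 rose (SLC2A6) and 4 fell (FBP1, GBE1, GYS1 and SLC2A5), 22.7% against 12.8% of all genes. Of 18 tested genes of pyruvate entry and the pentose phosphate pathway, 0 rose and 2 fell (TKT and TALDO1), 11.1%, which is near that background. SLC2A5, SLC2A6 and TALDO1 are named only to complete these counts, after their values were seen. FBP1, fructose-1,6-bisphosphatase, which opposes phosphofructokinase, fell from 104 ± 4.84 to 73.3 ± 5.19 CPM (log2 fold change -0.50, SE 0.06, adjusted p = 1.40e-04, edgeR), with all RRM2_OE libraries lower. TKT, transketolase of the pentose phosphate pathway, fell from 516 ± 8.01 to 437 ± 9.25 CPM (log2 fold change -0.24, adjusted p = 0.00220, edgeR). GBE1 and GYS1, the branching enzyme and the synthase of glycogen, fell by 0.28 and 0.25 on the log2 scale. The glucose transporters SLC2A1 and SLC2A3 gave 0.03 (SE 0.07) and 0.03 (SE 0.05) and did not pass. SLC16A3, the lactate exporter, gave 0.12 with separate groups (adjusted p = 0.0916, edgeR), and was called with the block (9.41e-04).

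Among 16 tested regulators of the HIF pathway, 1 rose and 0 fell (6.25%, below the 12.8% of all genes). That gene was EPAS1, which encodes HIF-2 alpha: MOCK libraries gave 114, 111, 111 and 97.2 CPM and RRM2_OE libraries 137, 131, 144 and 139 CPM, without overlap (log2 fold change 0.35, SE 0.06, adjusted p = 0.00143, edgeR). The partner ARNT gave -0.11 (SE 0.04, adjusted p = 0.136; 0.0204 with the block, lower) and VHL -0.01 (SE 0.05, adjusted p = 0.896, edgeR).

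Of 29 further hypoxia-induced genes tested, 4 rose and 2 fell (20.7%, against 12.8% of all genes). The fourth that rose was HMOX1, heme oxygenase, named after its values were seen. BHLHE40, a transcriptional repressor, rose from 424 ± 29.2 to 515 ± 32.98 CPM (adjusted p = 0.00971, edgeR), DDIT4, an mTORC1 inhibitor that p53 also induces, rose by 0.30 on the log2 scale (adjusted p = 0.00225, edgeR), and NFIL3, a bZIP transcription factor, rose by 0.31 (adjusted p = 0.00252, edgeR). ZNF395, a zinc finger protein, fell by 0.37 on the log2 scale and KDM4B, a histone demethylase, by 0.21 (adjusted p = 5.57e-04 and 0.0148, edgeR). The whole list of further hypoxia-induced genes had a median log2 fold change of -0.04.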

How the data were processed

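RNA from 4 MOCK and 4 RRM2_OE samples was sequenced after stranded poly(A) selection, per the labels' protocols. Per the submitters' processing notes, the build was hg19 (GRCh37) and the tools were HTSeq 0.11.2, TopHat2 and bcl2fastq 2.18.0.12. Neither the annotation nor the strand setting is stated in the sources used here. The authors deposited whole-number read counts per Ensembl gene and RPKM, which were recomputed from the counts and the deposited exon lengths to within 4.73e-06. Groups came from the sample descriptions and columns were matched by name. Symbols came from a table of current names.

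The main test was edgeR 4.0.16 under R 4.3.3 on the counts (filterByExpr defaults, 15286 of 34618 genes kept, TMM, robust quasi-likelihood F test, no covariate), with Benjamini-Hochberg adjustment over all genes tested and a threshold of 0.05. Standard errors were obtained by dividing the absolute log2 fold change by √F. The procedure was tested on simulated counts without an odd/even split and with planted changes no smaller than 1.5-fold. It was not tested on smaller changes such as those of the members. Same-numbered libraries correlated at 0.25, 0.23, 0.22 and 0.23 in their deviations from group means, so replicate number was also used as a block. The pairing comes from the numbers in the labels. Libraries of the 2 groups correlated at 0.22 to 0.29 where both numbers were odd or both even, and at -0.28 to -0.21 otherwise. Same-numbered libraries thus correlated no more closely than others that were both odd or both even. Alternatives were DESeq2 1.42.0, limma 3.58.1 (voom, and log2 RPKM with pseudocounts of 1 and 0.1), RLE, upper-quartile or no scaling factors, other filters, an odd/even term, an adjusted p of 0.01, replicates 1 and 3 or 2 and 4 alone, and leaving out each library. The text names all 33 members, RRM2, 6 preset pathway genes and the 10 pathway genes with the smallest adjusted p (EPAS1 is in both). The members and lists were chosen with earlier results of these data known. Of the marker lists, PECAM1 was not matched. With 10994255 to 11686152 counts per library, a gene with 21 to 42 reads (EGLN3) had an SE of 0.22 on the log2 scale.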

Additional observations from a re-analysis of the deposited data

Results flagged for a closer look

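Of 68 sets of 4 libraries examined (33 members and RRM2 in each group), 3 held a library far from the other 3, where chance alone gives about 1 in 20. P4HA2 was at 13.7 CPM in MOCK replicate 2, above 11.1 to 11.2 CPM in the other MOCK libraries. PFKFB3 was at 83.2 CPM in MOCK replicate 1, above 79.5 to 80.1 CPM, and PFKM was at 20.0 CPM in MOCK replicate 3, below 20.9 to 21.0 CPM. None of these 3 genes was called between the groups.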

How the results depend on the processing

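With replicate number as a block, 5 members were higher and 9 lower, 16 and 22 of the other pathway genes, and 2303 and 2143 of all genes, against 3 and 4, 6 and 8, and 1133 and 829 without it. An odd/even term gave 5 and 11, 16 and 22, and 2427 and 2277. At an adjusted p below 0.01, 1 member was higher and 2 lower, 4 other pathway genes were higher and 4 lower, and 530 and 281 of all genes. On log2 RPKM with limma, 7 other pathway genes were higher and 5 lower with either pseudocount. Of all genes, 1047 were higher and 465 lower with pseudocount 1, and 1022 and 466 with pseudocount 0.1. In replicates 1 and 3 alone, 8 other pathway genes were higher and 15 lower, and 1470 and 1330 of all genes. Leaving out each library in turn gave 2 to 3 members higher and 2 to 4 lower, 4 to 7 other pathway genes higher and 5 to 8 lower, and 808 to 937 of all genes higher and 542 to 607 lower, with 542 without MOCK replicate 2 and 545 without RRM2_OE replicate 1 or 3. VEGFA, HIF1A, ALDOC and PFKFB4 were called at an adjusted p below 0.05 in all 21 alternative fits, GPI in 16, ADM in 15 and PDK1 in 12. The block changed no other member's call than the 7 the report gives. No member called in any of these fits changed sign, while ALDOA, ANKRD37, EGLN1, EGLN3, LDHA, PGAM1 and TPI1, never called, crossed 0 under some alternative. By CPM in place of RPKM, in MOCK and RRM2_OE respectively, PFKL held 48.6% and 46.3% of its family, ALDOA 97.8% and 98.3%, ENO1 92.8% and 91.4%, LDHA 75.7% and 76.4%, PDK1 76.9% and 75.8% and PFKFB3 58.4% and 64.0%; this follows from leaving out exon length. The cause of the other shifts was not tested. Depth limits EGLN3 and CA9 most.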
